A study of Homo sapiens with 8 samples.

Results

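The genes described here carry a cell from G1 into S phase and copy its DNA. They are a fixed list of 47 symbols: G1 cyclins, their kinases and RB1, the E2F factors, origin licensing genes, helicase activation genes, polymerase and clamp genes, nucleotide supply genes, SLBP and UHRF1. All 47 were found in the deposited count table by symbol, among 24462 genes in all, and all 47 passed the filter on low counts, with 12577 genes tested. RNA was sequenced from HepG2 cells, a human hepatocellular carcinoma line, grown in DMEM with serum and antibiotics and given no treatment. The groups were 4 libraries labelled mock and 4 labelled EDN1 O/E, for overexpression of EDN1, the gene of the endothelin-1 precursor. Not given in the sources used here are the vector, the way EDN1 was introduced, and whether each line was a pool or 1 clone. The libraries were made with a QuantSeq kit, which counts a tag close to the 3′ end of each polyadenylated RNA. The labels do not say whether libraries of 1 group stem from different cultures, and p-values therefore cover only the spread among these libraries, which may be technical.

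In G1, D-type cyclins with CDK4 or CDK6 begin to phosphorylate RB, the protein that holds E2F factors in check, and cyclin E with CDK2 completes this. Freed E2F factors turn on the genes for replication. ORC, CDC6 and CDT1 load the MCM2 to MCM7 ring at origins, geminin blocks CDT1 from loading it again, and CDC45 with the GINS complex turns the loaded ring into a working helicase. Polymerases alpha, delta and epsilon, the PCNA clamp and its RFC loader then copy the strands. HepG2 cells divide in culture, unlike most hepatocytes of the adult liver, so these genes are read here in a proliferating population.

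E2F control can be looked for in the promoters. RefSeq promoters (GRCh38.p14, from 250 bases before to 50 after the start) were matched for 41 of the 47 genes. An E2F-type motif was searched as TTTGGCGC, TTTCGCGC, TTTCCCGC, TTTGGCGG or TTTCGCGG on both strands, where matches on opposite strands may overlap. It stood in 23 of the 41 promoters (56.1%), against 3.81% of 27305 promoters of the same length and 6.31% of the 9288 that belong to tested genes. By role it was in 5 of 5 helicase activation promoters, 3 of 3 E2F promoters, 6 of 9 licensing promoters and 7 of 13 polymerase and clamp promoters, but in 0 of 4 matched promoters of cyclins and kinases. The table's window for RB1 also held none, but its start lies 172699 bases inside the RefSeq gene, so the promoter at the gene's outer start was not searched. The starts used for CCND3, ORC1 and UHRF1 also lie over 1000 bases inside their genes. A CCAAT motif (both strands) was in 48.8% of the 41, against 35.7% of all promoters and 37.0% of those of tested genes. TTTGAA (both strands) was in 4.88%, against 15.4% of all promoters and 9.61% of those of tested genes. These are matches of letters, not sites of binding.

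The stretches of 140 bases before the start of 5 genes are shown because the values below turn on these genes, with E2F-type matches in capitals. E2F1 (chr20:33686386-33686525, minus strand), CDC45 (chr22:19479780-19479919, plus strand) and CDK4 (chr12:57752311-57752450, minus strand) are 3 of the 4 genes that lay over 2-fold apart between the library sets described below. POLA2 (chr11:65261822-65261961, plus strand) had the highest log2 fold change of the 47, and MCM6 (chr2:135876444-135876583, minus strand) held 4 matches in its whole promoter, 2 of them in the stretch shown, where they overlap. E2F1 and POLA2 hold 2 separate matches each, CDC45 holds 1 and CDK4 holds 0.
E2F1: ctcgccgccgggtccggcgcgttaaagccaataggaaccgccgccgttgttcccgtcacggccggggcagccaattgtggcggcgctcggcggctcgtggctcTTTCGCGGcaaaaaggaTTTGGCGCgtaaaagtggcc
CDC45: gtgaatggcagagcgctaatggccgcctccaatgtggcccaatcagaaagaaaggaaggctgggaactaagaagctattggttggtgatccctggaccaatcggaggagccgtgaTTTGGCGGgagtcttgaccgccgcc
POLA2: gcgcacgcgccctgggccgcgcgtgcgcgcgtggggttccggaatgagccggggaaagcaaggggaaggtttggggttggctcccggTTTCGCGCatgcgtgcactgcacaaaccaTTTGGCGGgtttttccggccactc
MCM6: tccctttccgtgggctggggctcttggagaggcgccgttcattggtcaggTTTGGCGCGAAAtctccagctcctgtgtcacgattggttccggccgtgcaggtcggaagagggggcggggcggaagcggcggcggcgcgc
CDK4: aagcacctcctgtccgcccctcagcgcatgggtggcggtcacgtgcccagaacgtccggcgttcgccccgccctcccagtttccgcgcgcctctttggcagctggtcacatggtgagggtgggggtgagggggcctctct

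Total counts ran from 8409173 to 14932385 per library. EDN1 was at 2.26, 1.11, 1.04 and 1.38 CPM (counts scaled to a common library size by TMM) in mock 1 to 4 and at 228, 259, 418 and 549 CPM in EDN1 overexpression 1 to 4. The log2 fold change was 7.92 (SE 0.41, adjusted p = 1.68e-05 by edgeR's quasi-likelihood test), and every library had the EDN1 level its label names. All 10 hepatocyte markers were detected, including ALB and AFP, and their summed level was 7167 to 10239 CPM of total counts in mock and 7987 to 10095 in EDN1 overexpression. The 5 fibroblast markers summed to at most 8.70 CPM, with LUM at 0, and the 5 blood and immune markers to at most 19.2 CPM, with CD3E at 0 and at least 8.18 CPM in each library. Libraries were clustered on the tested genes without the 47, and the tree was cut into 2 sets, a number fixed beforehand. Mock 4, EDN1 3 and EDN1 4 fell in one set and the other 5 libraries in the other, and no label gives a batch. These are called the second and the first library set. Since the sets were drawn from the same counts, differences between them are given as descriptions. Fold changes within each set are given for the genes the results turn on. Those within the second set rest on mock 4 as their only mock library.

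The comparison of EDN1 overexpression with mock asked whether the replication program differed. No gene of the 47 passed edgeR's quasi-likelihood test over all genes (adjusted p = 1.0 for each, Benjamini-Hochberg), where 0.00795% of the tested genes passed, which was EDN1 alone. DESeq2 and limma voom also called 0 of the 47. At an unadjusted p under 0.05 there were 2, CCND2 and SLBP, both with positive fold changes, where 2.03% of all tested genes lay past this line in that direction and 0.827% in the other. In 37 of the 47 the log2 fold change was positive, against 50.3% of all tested genes, with a median of 0.15 against 0.00 for all genes. Genes of a library are not independent, so these signs are not 47 separate observations. The mean level of the 47 (log2 CPM centred on each gene's mean) differed by 0.15 between the groups. Its SD was 0.18 in mock and 0.36 in EDN1 overexpression (n = 4 each). The fold changes ran from -0.29 (CDK4) to 0.63 (POLA2) on the log2 scale. The 4 libraries of one group never lay wholly above or below the other 4 in any of the 47, where this was so for 1.38% of all genes in the higher and 0.668% in the lower direction. In 38 of the 47 the 95% interval lay within 2-fold either way, as it did for 79.4% of all genes. In bulk RNA, a change in the share of cells in S phase and a change in RNA per cell cannot be told apart.

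**Figure D1:**
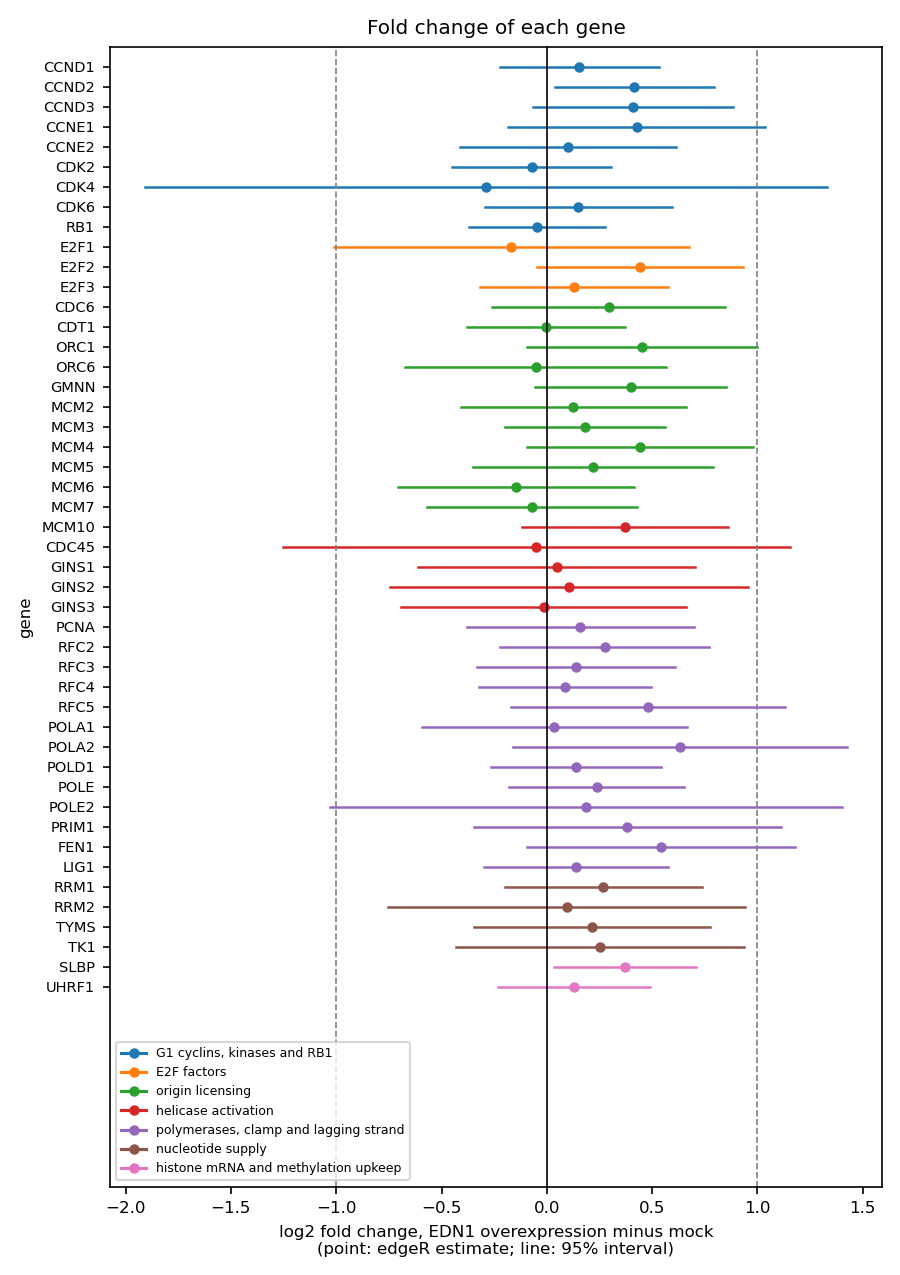
Log2 fold change of each of the 47 genes, EDN1 overexpression minus mock, with the 95% interval of edgeR's fit (n = 4 libraries a group), coloured by role. Dashed lines mark 2-fold. Most points lie to the right of 0, and only the intervals of CCND2 and SLBP leave out 0 before adjustment.

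Among the G1 cyclins, kinases and RB1, 6 of 9 had positive and 3 had negative fold changes, with 0 past the test and a median log2 fold change of 0.15. CCND2, a D-type cyclin gene, was at 18.3, 14.1, 16.6 and 16.1 CPM in mock 1 to 4 and at 19.8, 22.7, 18.2 and 26.2 CPM in EDN1 overexpression 1 to 4. Mock 1 lay just above EDN1 3 and the other libraries did not overlap. The log2 fold change was 0.41 (SE 0.17, unadjusted p = 0.0342 in edgeR's fit over all genes). EDN1 4 was the highest library for CCND2, and without it the fold change was 0.31 (SE 0.17). CCND3, another D-type cyclin gene, was at 16.5, 26.9, 17.0 and 23.4 CPM in mock and at 30.7, 20.5, 33.5 and 26.6 CPM in EDN1 overexpression, with a log2 fold change of 0.41 (SE 0.22). EDN1 1 and EDN1 3 were above every mock library, while EDN1 2 and EDN1 4 lay within the mock range. CCNE1, a cyclin E gene, was at 17.1, 10.3, 18.2 and 17.4 CPM in mock and at 24.7, 18.4, 29.0 and 12.5 CPM in EDN1 overexpression, a log2 fold change of 0.43 (SE 0.28). Here mock 2 and EDN1 4 were the 2 lowest libraries, and the fold change was 0.61 without EDN1 4 and 0.24 without EDN1 3.

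CCND1, the cyclin D1 gene, drew the most counts of the 47. It was at 669, 488, 482 and 576 CPM in mock and at 647, 554, 740 and 526 CPM in EDN1 overexpression, and the log2 fold change was 0.15 (95% interval -0.22 to 0.53). The groups overlapped through most of their range. A 2-fold difference either way lay outside this interval. CCNE2, the other cyclin E gene, averaged 6.96 ± 1.41 CPM in mock libraries and 7.46 ± 1.59 in EDN1 overexpression (SD, n = 4). CDK2, the kinase partner of cyclin E, averaged 65.9 ± 10.5 and 62.6 ± 10.3 CPM, and RB1 averaged 31.7 ± 2.20 and 30.7 ± 3.71 CPM (SD, n = 4 each). RB1 had the smallest standard error of the 47 (0.15 on the log2 scale), with a log2 fold change of -0.05.

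The 3 E2F genes did not share a pattern. E2F2, an activating E2F factor gene, was at 7.18, 6.79, 9.85 and 9.40 CPM in mock and at 11.3, 11.1, 14.4 and 8.31 CPM in EDN1 overexpression. EDN1 1 to 3 lay above every mock library and EDN1 4 lay inside the mock range, with a log2 fold change of 0.44 (SE 0.22). E2F3 was at 78.4, 43.1, 65.3 and 74.8 CPM in mock and at 58.8, 67.0, 84.6 and 76.2 CPM in EDN1 overexpression, a log2 fold change of 0.13 (SE 0.20). Mock 2 was the lowest library, and without it the fold change was -0.03. E2F1, whose own promoter is a textbook E2F target, was at 74.4, 110, 99.7 and 38.5 CPM in mock and at 93.4, 104, 56.2 and 33.3 CPM in EDN1 overexpression. Its fold change was -0.17 (SE 0.38) over all libraries, but 0.06 within the first and 0.21 within the second library set, since its 3 lowest values were those of the second set.

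Origin licensing genes had positive fold changes in 7 of 11 and negative ones in 4, with 0 past the test and a median of 0.18. GMNN, the geminin gene, whose product stops licensing, was at 19.0, 23.5, 28.5 and 21.6 CPM in mock and at 39.6, 28.2, 31.7 and 22.1 CPM in EDN1 overexpression (log2 fold change 0.40, SE 0.21). ORC1, the origin recognition subunit gene, was at 3.51, 4.45, 5.33 and 4.22 CPM in mock and at 6.67, 5.56, 7.37 and 4.16 CPM in EDN1 overexpression (0.45, SE 0.25). In ORC1, EDN1 1 to 3 were above every mock library and EDN1 4 was inside the mock range. MCM4, a subunit gene of the helicase ring, was at 80.8, 60.6, 78.7 and 78.2 CPM in mock and at 120, 85.7, 140 and 59.5 CPM in EDN1 overexpression (0.44, SE 0.24). EDN1 4 was again the lowest of the 8, next to mock 2.

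The 6 subunits of the MCM2 to MCM7 ring act in equal numbers, but their fold changes were not alike: 4 were positive and 2 negative, from -0.15 for MCM6 to 0.44 for MCM4. MCM6 averaged 11.1 ± 2.02 CPM in mock libraries and 10.01 ± 3.24 in EDN1 overexpression, and MCM7 81.7 ± 16.0 and 77.8 ± 21.6 (SD, n = 4). MCM2, MCM3 and MCM5 had log2 fold changes of 0.13, 0.18 and 0.22. Without EDN1 4, MCM6 was at 0.018 and MCM7 at 0.098. No test compared the subunits with one another, and the interval of each was within 2-fold. Of the loading factors, CDC6 had a log2 fold change of 0.29 (SE 0.25), while CDT1 (0.00, SE 0.17) averaged 71.9 ± 10.1 CPM in mock libraries and 71.7 ± 12.5 in EDN1 overexpression. ORC6, a further origin recognition gene, had -0.05 (SE 0.28). CDC6 was at 63.1, 58.9 and 58.5 CPM in EDN1 1 to 3, above the mock maximum of 56.6, and at 28.6 CPM in EDN1 4, below the mock minimum of 36.3.

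Helicase activation genes had positive fold changes in 3 of 5, with 0 past the test, and a median of 0.05. Their mean level (log2 CPM centred on each gene's mean) had the largest SD of the 7 roles within both groups, 0.39 in mock and 0.78 in EDN1 overexpression (n = 4). MCM10, which helps to start the loaded helicase, was at 24.7, 22.1, 26.1 and 23.5 CPM in mock and at 33.7, 27.2, 43.4 and 19.98 CPM in EDN1 overexpression (log2 fold change 0.37, SE 0.22). EDN1 1 to 3 lay above every mock library and EDN1 4 below every one. GINS2 was at 34.3, 20.3, 32.2 and 18.2 CPM in mock and at 41.1, 29.7, 32.6 and 9.24 CPM in EDN1 overexpression (0.11, SE 0.38). GINS1, another subunit gene of the same complex, was at 20.2, 23.1, 23.5 and 15.6 CPM in mock and at 26.3, 26.4, 22.9 and 9.24 CPM in EDN1 overexpression (0.05, SE 0.30). In both, EDN1 4 was the lowest library and mock 4 the next. The fold changes without EDN1 4 were 0.39 for GINS2 and 0.29 for GINS1, and without EDN1 1 they were -0.13 and -0.07. GINS3 averaged 14.4 ± 4.42 CPM in mock libraries and 14.2 ± 5.01 in EDN1 overexpression (SD, n = 4).

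CDC45, the partner of GINS in the helicase, was at 15.8, 5.81, 12.2 and 4.49 CPM in mock and at 13.7, 13.0, 8.16 and 1.85 CPM in EDN1 overexpression. The log2 fold change was -0.05 (95% interval -1.25 to 1.15), so neither an increase nor a decrease of 2-fold was outside the interval. The EDN1 4 value rests on 16 counts and the mock 4 value on 65, against 202 counts in mock 1. Within the first library set the fold change was 0.24 and within the second 0.16. CDC45 thus had negative and positive estimates depending on whether the sets were kept apart, none of them past the test.

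All 13 polymerase, clamp and lagging strand genes had positive fold changes, with 0 past the test and a median of 0.19. This count did not hold in every fit. POLE2 was at -0.046 in limma voom and at -0.069 once libraries were blocked by their number. Leaving out single libraries gave lowest values below 0 for PCNA (-0.086), RFC3 (-0.013), RFC4 (-0.018), POLA1 (-0.22) and POLE2 (-0.65). With the set as a term POLA1 was at -0.11, within the first set POLA1 and POLD1 were negative, and within the second set 5 of the 13 were (PCNA, POLA1, POLE2, PRIM1 and LIG1). FEN1, the flap nuclease gene of lagging strand synthesis, was at 125, 73.1, 116 and 80.1 CPM in mock and at 191, 118, 185 and 79.2 CPM in EDN1 overexpression (log2 fold change 0.54, SE 0.29). EDN1 1 and EDN1 3 stood high, EDN1 2 was inside the mock range and EDN1 4 was beside mock 2 and mock 4 at the low end. POLA2, a subunit gene of polymerase alpha, was at 7.18, 2.59, 6.03 and 6.15 CPM in mock and at 10.5, 6.24, 12.4 and 5.08 CPM in EDN1 overexpression (0.63, SE 0.36). Its low mock 2 value rests on 21 counts, and the fold change was 0.40 without EDN1 3. RFC5, a clamp loader subunit gene, was at 15.6, 10.6, 18.5 and 12.6 CPM in mock and at 26.2, 18.4, 25.1 and 10.2 CPM in EDN1 overexpression (0.48, SE 0.29). The values of EDN1 1 and EDN1 3 were again the highest and that of EDN1 4 the lowest.

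POLE2, an accessory subunit gene of polymerase epsilon, was at 3.82, 2.96, 5.45 and 2.07 CPM in mock and at 9.11, 3.52, 2.02 and 1.27 CPM in EDN1 overexpression. EDN1 1 alone was high, and the log2 fold change of 0.19 (SE 0.55) was -0.65 without that library. Within the library sets the fold change was 0.65 and -0.33. The catalytic subunit genes varied less: POLE averaged 8.70 ± 1.30 CPM in mock libraries and 10.2 ± 1.29 in EDN1 overexpression, POLD1 17.5 ± 2.24 and 19.2 ± 3.66, and POLA1 11.6 ± 3.19 and 11.9 ± 4.16 (SD, n = 4). PCNA, the sliding clamp gene, averaged 106 ± 12.4 and 118 ± 43.3 CPM. EDN1 1 (173 CPM) and EDN1 2 (121 CPM) lay above the mock range of 88.5 to 117 CPM and EDN1 4 (68.5 CPM) below it. The other clamp loader genes RFC2, RFC3 and RFC4 had log2 fold changes of 0.27, 0.14 and 0.08. LIG1, the ligase gene that joins lagging strand fragments, had 0.14 (SE 0.20), and PRIM1, a primase gene, 0.38 (SE 0.33) from 2.00 ± 0.897 CPM in mock (SD, n = 4).

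The 4 nucleotide supply genes all had positive fold changes, from 0.09 for RRM2 to 0.27 for RRM1, with 0 past the test. RRM1, the large subunit gene of ribonucleotide reductase, was at 199, 132, 185 and 159 CPM in mock and at 232, 208, 242 and 130 CPM in EDN1 overexpression (SE 0.21). EDN1 1 to 3 were above every mock library, and EDN1 4 was level with mock 2. TYMS, the thymidylate synthase gene, was at 174, 96.0, 172 and 182 CPM in mock and at 181, 159, 256 and 127 CPM in EDN1 overexpression (0.22, SE 0.25), and without EDN1 3 its fold change was -1.65e-04. TK1, the thymidine kinase gene, was at 59.2, 51.3, 57.4 and 36.6 CPM in mock and at 90.7, 70.7, 53.6 and 27.9 CPM in EDN1 overexpression (0.25, SE 0.31), and without EDN1 1 its fold change was -0.01. RRM2, the small reductase subunit gene, averaged 81.2 ± 34.2 and 86.6 ± 36.3 CPM (SD, n = 4), and its 2 lowest libraries were EDN1 4 and mock 2. With each library left out its fold change ran from -0.13 to 0.35.

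SLBP encodes the protein that binds the stem-loop of replication-dependent histone mRNAs, and UHRF1 a reader of hemimethylated DNA that recruits DNMT1 to replicated DNA. SLBP was at 28.9, 24.7, 28.5 and 28.2 CPM in mock and at 39.9, 35.3, 38.7 and 28.6 CPM in EDN1 overexpression. EDN1 1 to 3 lay above every mock library, and EDN1 4 lay between mock 3 and mock 1. The log2 fold change was 0.37 (SE 0.15, 95% interval 0.03 to 0.71, unadjusted p = 0.0345 in edgeR's fit over all genes), with 0.46 within the first and 0.25 within the second library set. UHRF1 was at 31.3, 27.8, 35.4 and 27.2 CPM in mock and at 35.0, 35.6, 36.2 and 26.1 CPM in EDN1 overexpression (0.13, SE 0.16), so the groups overlapped and EDN1 4 was the lowest.

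The libraries of the EDN1 group did not move together. Of the 47 genes, 28 lay above all 4 mock libraries in EDN1 1 (21% of all tested genes did so), 16 in EDN1 2 (14.7%), 25 in EDN1 3 (25.8%) and 3 in EDN1 4 (23.6%). Below all 4 mock libraries lay 1 in EDN1 1 (18.4% of all tested genes), 1 in EDN1 2 (12.6%), 2 in EDN1 3 (23.5%) and 24 in EDN1 4 (22.8%). EDN1 4 was the lowest of all 8 libraries in 24 genes and mock 2 in 13, while EDN1 3 was the highest in 18 and EDN1 1 in 15. EDN1 4 had the highest EDN1 level of the 8 libraries. The mean centred log2 CPM of the 47 was 0.03, -0.25, 0.12 and -0.19 across the mock libraries in order, and 0.36, 0.14, 0.24 and -0.45 across those of EDN1 overexpression.

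The median fold change moved more without EDN1 4 than without any other single library, which was not so for every gene. Without it, 45 of the 47 had positive fold changes (50.2% of all genes tested without it) and the median log2 fold change was 0.31. Then 13 had an unadjusted p under 0.05, all positive, where 3.32% of all genes did with positive and 2.44% with negative fold changes. In 9 (CCNE1, E2F2, CDC6, ORC1, MCM4, MCM10, POLE, RRM1 and SLBP) the remaining libraries did not overlap, where 3.82% of all genes did not overlap in that direction and 2.71% in the other. Still 0 passed the adjustment over all genes, where 0.00781% did, the smallest adjusted p being 0.803 by edgeR's quasi-likelihood test. Leaving out any other single library gave 31 to 42 positive fold changes, where 49.7% to 51.9% of all genes tested were positive. The median was then 0.11 to 0.23. An unadjusted p under 0.05 was then found in 1 or 2 of the 47, and the share of all genes was not taken for these fits. EDN1 4 stood out by its low values in these same 47 genes, so higher fold changes without it were built in. The counts without EDN1 4 are therefore a description and no separate evidence of a difference between the groups. The labels give no reason to set EDN1 4 aside, and it is kept in all values not marked otherwise.

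**Figure D2:**
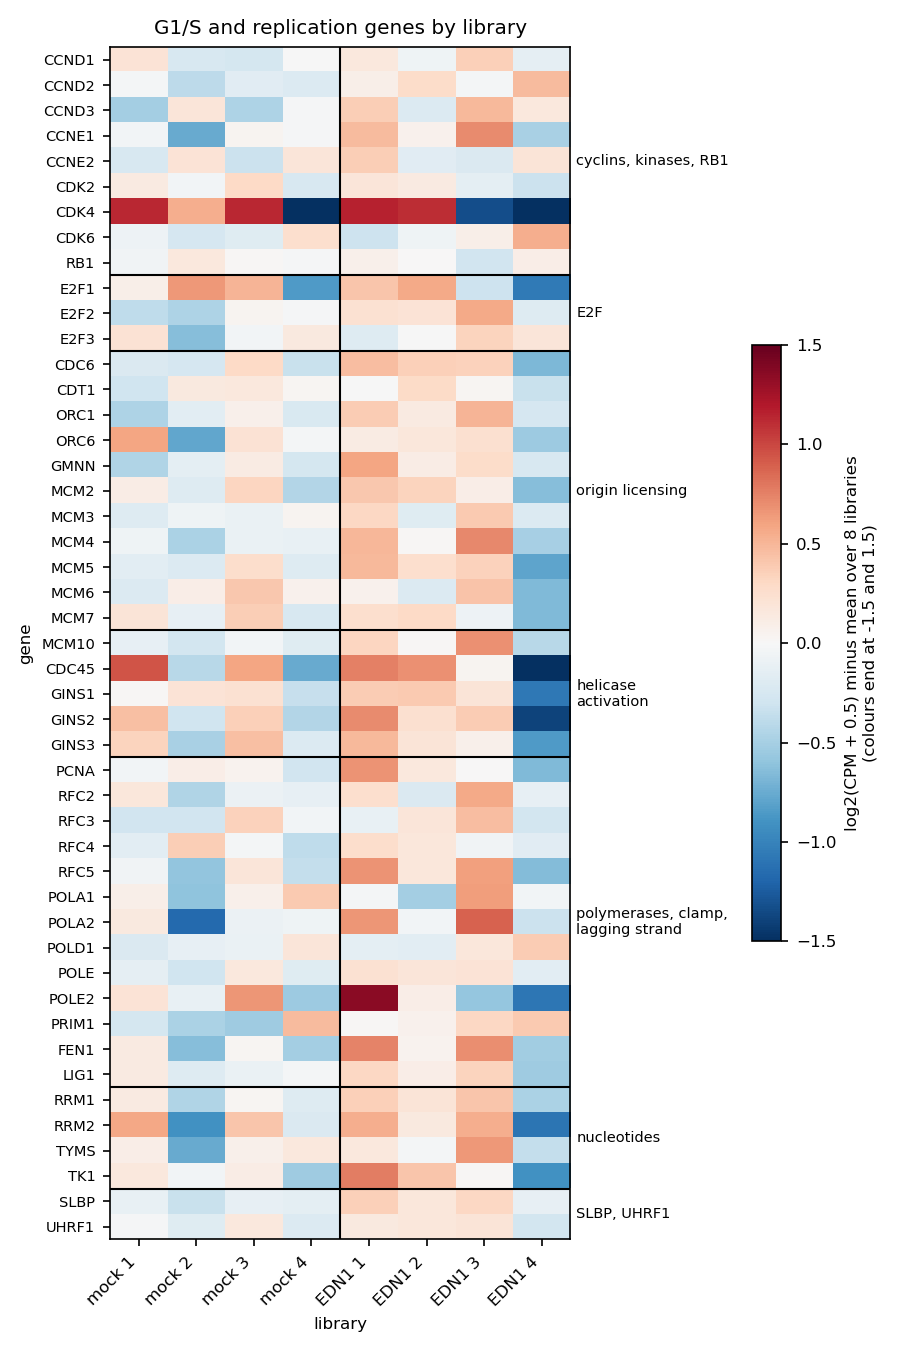
Each row is 1 of the 47 genes and each column 1 library, coloured by log2(CPM + 0.5) minus the gene's mean over the 8 libraries. The column of EDN1 4 is mostly blue and those of EDN1 1 and EDN1 3 mostly red, while CDK4 follows the library sets (low in mock 4, EDN1 3 and EDN1 4). High values are not particular to these columns. Above the gene's own median lay 39 of the 47 in EDN1 1, 34 in EDN1 2, 32 in EDN1 3 and also 32 in mock 3.

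Between the library sets, CDK4, the kinase gene of the D-type cyclins, differed more than any other of the 47. It was at 317, 211, 315, 322 and 310 CPM in mock 1 to 3 and EDN1 1 and 2, and at 42.4, 57.2 and 35.8 CPM in mock 4, EDN1 3 and EDN1 4. The ranges did not approach each other, and both groups had libraries on both sides. In a fit with group and set as terms the log2 difference of the second from the first set was -2.75 (SE 0.21), the seventh lowest (rank 7) of the 12577 genes. It was -2.60 to -2.91 with each library left out in turn. CDK4 accordingly had the widest interval for EDN1 overexpression, a log2 fold change of -0.29 (95% interval -1.91 to 1.33), but 0.17 within the first and 0.12 within the second set.

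CDK4 overlaps TSPAN31, a tetraspanin gene on the other strand, in RefSeq, and the use of strand in counting is not given. TSPAN31 was at 14.4, 14.3, 15.4, 12.9 and 15.4 CPM in the first set (mock 1 to 3, then EDN1 1 and 2) and at 13.6, 10.6 and 9.82 CPM in mock 4, EDN1 3 and EDN1 4. It averaged 14.5 CPM in the first and 11.3 in the second set. Summed with CDK4 the pair averaged 309.7 and 56.5 CPM. Fitted with group and set as terms, the log2 difference of the summed counts was -2.48. CDK6, which encodes the kinase that shares the D-type cyclins with CDK4, was at 192, 170, 178, 163 and 193 CPM in the first set and at 242, 216 and 295 CPM in the second. That log2 difference was 0.48 (SE 0.14). CDK6 and CDK4 thus lay in opposite directions between the sets. RB1, their shared substrate gene, differed by -0.10 (SE 0.14).

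**Figure D3:**
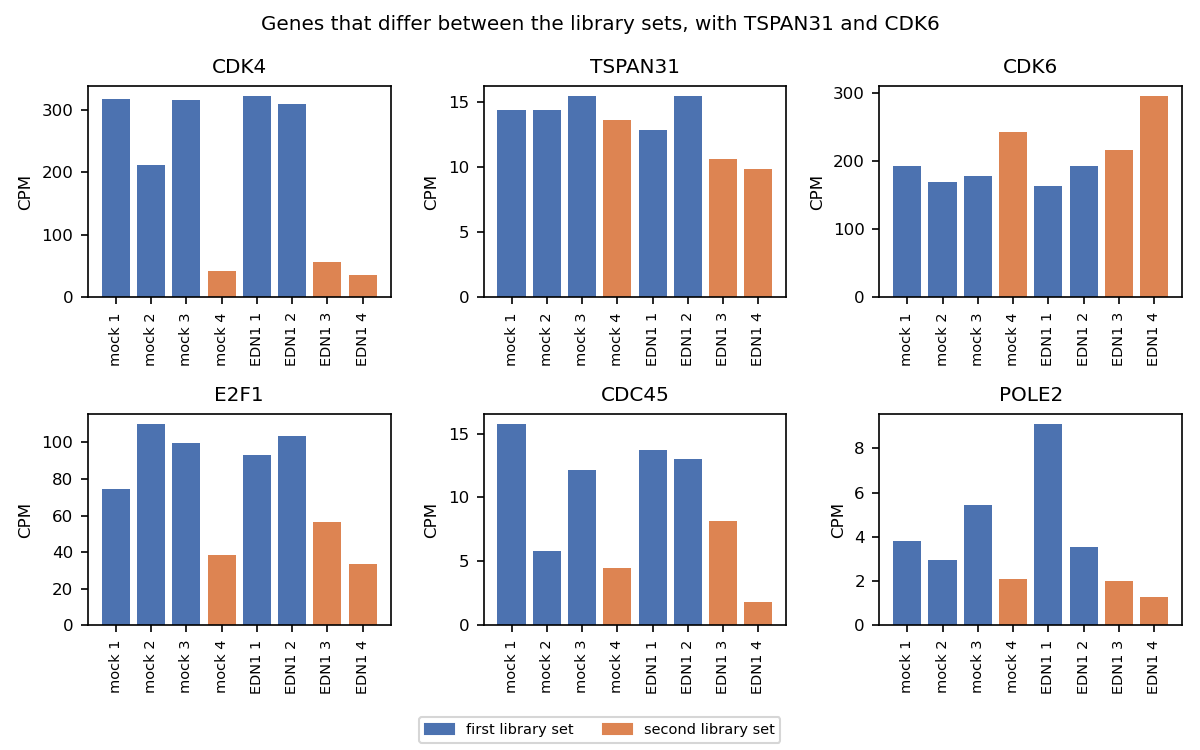
Bars give the CPM in each library, blue for the first and orange for the second library set, with every axis from 0. CDK4 is at 35.8 to 57.2 CPM in the 3 orange libraries and at 211 CPM or more in the others, TSPAN31 is at 9.82 to 13.6 CPM in the orange and 12.9 to 15.4 CPM in the blue libraries, and CDK6 is highest in the orange libraries.

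Of the 47 genes, 4 lay over 2-fold lower in the second set, where 4.64% of all tested genes did, and 0 lay over 2-fold higher, where 1.53% did. Beside CDK4 these were POLE2 (4.97 CPM on average in the first and 1.79 in the second set, log2 difference -1.503), CDC45 (12.1 and 4.83 CPM, -1.36) and E2F1 (96.3 and 42.7 CPM, -1.20). In E2F1 and POLE2 no library of one set reached the other, while in CDC45 mock 2 of the first set lay below EDN1 3. Next inside 2-fold came TK1 (-0.82), GINS2 (-0.71), PRIM1 (0.68) and GINS1 (-0.62). In all, 28 of the 47 were lower in the second set, against 49.5% of all tested genes, with a median log2 difference of -0.15 against 0.00. With the set as a term, 43 of the 47 fold changes for EDN1 overexpression were positive (50.6% of all genes), the median was 0.22 and 0 passed the test. Of the 8 genes whose sign changed in that fit, 7 turned positive (CDK2, CDK4, E2F1, CDT1, MCM7, CDC45 and GINS3) and POLA1 turned negative. Within the first set 42 of the 47 were positive (49.3% of all genes tested there). Within the second, with mock 4 as its only mock library, 34 were (52.3%).

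Genes that overlap another counted gene carry a further limit. In RefSeq 13 of the 47 overlap at least 1 gene with counts here, among them TYMS with TYMSOS and ENOSF1, GINS2 with GSE1, RFC5 with WSB2, ORC1 with PRPF38A, MCM7 with AP4M1 and RB1 with LPAR6. GSE1 had 22643 counts over the 8 libraries against 2365 for GINS2, and PRPF38A 6191 against 439 for ORC1. CCNE2, with 618 counts, overlaps INTS8 (759) and NDUFAF6 (675). For CCND2, E2F2, PCNA, POLA1 and UHRF1 the overlapping gene had only 1 to 6 counts. Whether reads were shared in these pairs was not tested.

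Other genes of the same processes were set beside the 47. Of 24 tested further G1/S regulators, 15 had positive and 9 negative fold changes (median 0.08), with 0 past the test. SKP2, a ubiquitin ligase subunit gene that targets the inhibitor p27, was at 19.1, 20.8, 24.1 and 16.1 CPM in mock and at 37.3, 30.2, 34.7 and 20.4 CPM in EDN1 overexpression (log2 fold change 0.62, SE 0.21). EDN1 4 alone lay inside the mock range. CCNH, a cyclin gene of the CDK-activating kinase, had -0.32 (SE 0.17), and CKS2, a CDK subunit gene, 0.44 (SE 0.25).

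Of 51 further replication genes, 36 had positive and 15 negative fold changes (median 0.12), with 0 past the test. The smallest unadjusted p belonged to CHEK1, the replication checkpoint kinase gene (log2 fold change 0.58, SE 0.26), DSCC1, a clamp loader subunit gene (0.50, SE 0.23), and MCM9, a helicase gene (0.61, SE 0.28). CHEK1 was at 12.8, 6.35, 15.1 and 9.35 CPM in EDN1 1 to 4 against 6.79 to 7.88 CPM in mock. An E2F-type motif stood in 11 of the 40 matched promoters of these replication genes (27.5%).

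Of 20 genes of G2/M and mitosis, the next stage of the cycle, 18 had positive fold changes (median 0.19), with 0 past the test. UBE2C, an enzyme gene of the anaphase-promoting complex, was at 39.3, 22.1, 59.7 and 44.4 CPM in mock and at 60.3, 68.5, 80.9 and 51.2 CPM in EDN1 overexpression (log2 fold change 0.66, SE 0.27). The spindle checkpoint genes BUB1B and BUB1 had 0.42 (SE 0.20) and 0.52 (SE 0.29). The mitotic genes were lowest in mock 2, with a mean centred log2 CPM of -0.71 against -0.35 in EDN1 4, while the 47 were lowest in EDN1 4, at -0.45 against -0.25 in mock 2. In the lists nearest to the 47, mock 2 and EDN1 4 were likewise the lowest libraries. The further replication genes were at -0.28 in both, and the further G1/S regulators at -0.18 in mock 2 and -0.14 in EDN1 4. The promoters of the mitotic genes differed from those of the 47. TTTGAA stood in 10 of 15 matched mitotic promoters (66.7%) and CCAAT in 13 of 15 (86.7%), against 2 and 20 of the 41 promoters above. Among all promoters of tested genes the shares were 9.61% and 37.0%.

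**Figure D4:**
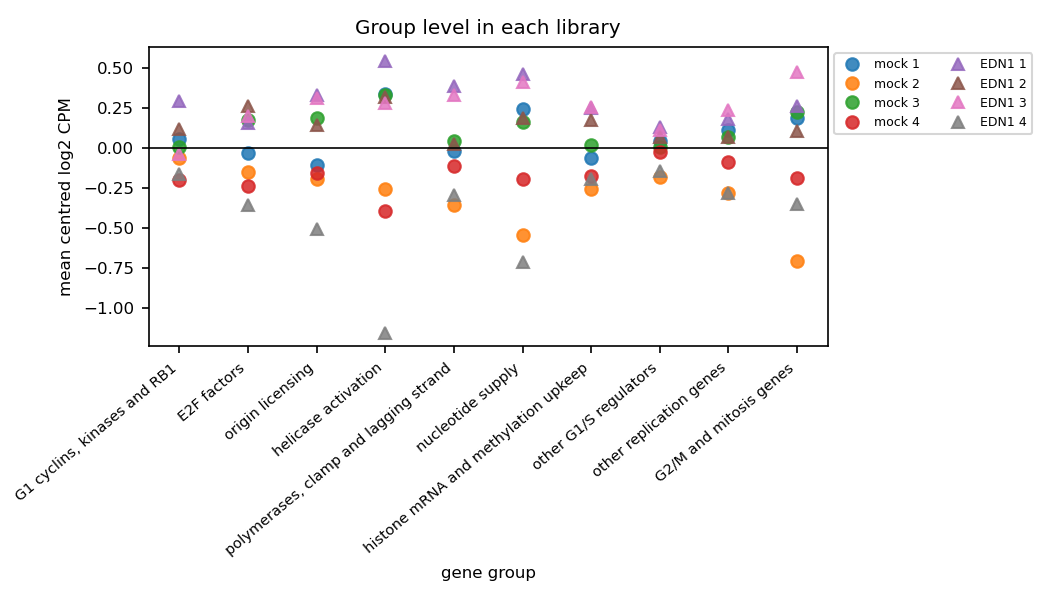
Mean over each gene group of log2 CPM centred on each gene's mean, in every library (circles mock, triangles EDN1 overexpression). EDN1 4 is lowest for helicase activation (-1.16), nucleotide supply (-0.71), origin licensing (-0.51) and the E2F factors (-0.36). Mock 2 is lowest for the mitotic genes (-0.71).

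By role, EDN1 4 was lowest for helicase activation genes, at -1.16, where the other 7 libraries lay between -0.40 and 0.55. For nucleotide supply it was at -0.71 and mock 2 at -0.55, and for licensing at -0.51 against -0.20 in mock 2. For the E2F factors EDN1 4 was lowest as well (-0.36), with mock 4 at -0.24. For polymerase and clamp genes mock 2 was lowest (-0.36), with EDN1 4 at -0.30. The same held for SLBP and UHRF1, with mock 2 at -0.26 and EDN1 4 at -0.20. For cyclins, kinases and RB1 mock 4 was lowest (-0.20), with EDN1 4 at -0.16. The differences between the group means were at most 0.24, and the SD within the EDN1 group was 0.20 to 0.78 by role. The 23 genes with an E2F-type match had positive fold changes in 17, with a median of 0.13, and the 18 matched genes without one (RB1 among them) in 15, with a median of 0.27. The difference between these medians was not tested.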

How the data were processed

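RNA was measured in 8 HepG2 libraries, 4 mock and 4 EDN1 overexpression, grouped and numbered by their titles. The deposited table holds raw counts per gene, made by the authors, and a gene length. The submitters' processing notes name Bowtie2, edgeR and the build hg19. Not given in the sources used here: versions, counting tool, annotation and strand setting. Rows of 1 symbol were summed, except 2 symbols (MARCH1, MARCH2) that stand for different genes. None of the 47 stood on more than 1 row.

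Genes were filtered with filterByExpr (minimum count 10) and scaled by TMM. They were tested with edgeR 4.0.16 in R 4.3.3 (quasi-likelihood, group only, Benjamini-Hochberg over 12577 genes, threshold 0.05). The test was checked on simulated counts without library sets, and its recovery of small fold changes is not given here. SE is the fold change over the square root of F. Mean centred values use log2 CPM with a prior count of 2. Library sets came from average-linkage clustering on 1 minus Pearson correlation, with the tree cut into 2. DESeq2 1.42.0, limma 3.58.1, other scalings and filters, the replicate number as a block, the library set and each library left out were alternatives. No 2 libraries were alike within counting noise (chi-square per degree of freedom 6.49 to 92.7). For EDN1 3 it was 43.5 with mock 4 and 59.8 with EDN1 4 of its own set, and 43.2 to 89.1 with the first set. RefSeq tables of GRCh38.p14 gave promoters and overlaps only.

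Members and lists were chosen with earlier results of these data known. Values in every library are given for EDN1, the 3 members of each role with the smallest unadjusted p, members with groups that do not overlap or beyond 2-fold between the sets, and the most counted member. Of each further list the 3 genes with the smallest p are named.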

Additional observations from a re-analysis of the deposited data

Results flagged for a closer look

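In 9 cases 1 library lay far from the other 3 of its group by Dixon's test at the 95% level, out of 96 groups of 4 looked at (47 genes and EDN1, 2 groups each). Chance flags about 1 in 20 groups. Mock 2 was the low library in 4 of them: CCNE1 at 10.3 CPM (the next 17.1), MCM4 at 60.6 CPM (next 78.2), TYMS at 96.0 CPM (next 172) and SLBP at 24.7 CPM (next 28.2). Mock 3 was the high library in 2, CDC6 at 56.6 CPM (next 39.5) and MCM5 at 43.3 CPM (next 32.2). EDN1 4 was the low library in 3, CDC6 at 28.6 CPM (next 58.5), POLE at 8.31 CPM (next 10.7) and UHRF1 at 26.1 CPM (next 35.0). Genes of a library are not independent, so these cases do not count as separate events.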

How the results depend on the processing

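DESeq2 called 3 genes in place of 1, and none of the 47 was called under any of the 20 alternatives. Same-numbered libraries had correlations of their deviations of 0.48, 0.15, -0.15 and 0.53. The same number was the best match for mock 1 and mock 4, but not for mock 2 and mock 3. Mock 4 and EDN1 3, of the same library set, had 0.52. Whether the numbers mark pairs was not settled by these values. With the replicate block 1 gene and 0 of the 47 were called, the median of the 47 was 0.13, and fold changes turned negative for GINS2 (-0.014), GINS1 (-0.039) and POLE2 (-0.069), as in limma voom (-0.0060, -0.020 and -0.046). With the library set as a term they turned positive for E2F1 (0.12), CDC45 (0.22) and CDK4 (0.16), as in the first set alone (0.058, 0.24 and 0.17) and in the second (0.21, 0.16 and 0.12), where POLE2 was -0.33. The lone mock library of the second set is assumed to vary like the others. Groups did not overlap in 0 of the 47, where 1.38% of all genes did not in the higher and 0.668% in the lower direction. The count was 2 with DESeq2-type size factors, 1 with upper quartile scaling and 1 with a minimum count of 30. It was 0 to 9 with each library left out. The 9 were those without EDN1 4, where the shares of all genes were 3.82% and 2.71%. For the other alternatives the share of all genes was not taken, so those counts cannot be read as many or few. Over 1.5-fold, 8 genes differed between the sets. With each library left out in turn, 23 of the 47 fold changes took both signs, 14 of them outside the naming rule (CCNE2, CDK2, CDK6, RB1, CDT1, ORC6, MCM6, MCM7, GINS3, PCNA, RFC3, RFC4, POLA1 and RRM2). The other 9 were CDC45 (-0.31 to 0.31), CDK4 (-0.72 to 0.053), E2F1 (-0.40 to 0.069), E2F3 (-0.025 to 0.23), GINS1 (-0.074 to 0.29), GINS2 (-0.13 to 0.39), POLE2 (-0.65 to 0.47), TK1 (-0.0089 to 0.49) and TYMS (-1.65e-04 to 0.35). PRIM1 (12 to 48 counts) and POLE2 (11 to 112) are limited by depth.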
